A study of Mus musculus with 10 samples.

Results

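The gp130 cytokine axis was followed through 10 genes in the mouse cerebral cortex, chosen by name: the receptor chains Osmr, Il6ra, Il6st, Lifr and Cntfr, the ligands Cntf, Lif and Clcf1, the transcription factor Stat3 and the feedback inhibitor Socs3. All 10 were found among the 55401 genes of the deposited table. The libraries came from 5 mice with traumatic brain injury (TBI) and 5 control mice. The sample titles name the controls Sham, whereas the series design speaks of naïve animals, so it is not settled whether they had surgery. Strain, age, sex, injury model and time after injury are not given in the sources used here. The comparison asks whether receptors, ligands and feedback of this axis differ in transcript level between injured and control cortex.

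Cytokines of the interleukin 6 family share the receptor chain gp130, which is encoded by Il6st and carries the signal across the membrane. The cytokines recruit gp130 together with partner chains, and some of these, such as the chain encoded by Lifr, serve several cytokines. Jak kinases then phosphorylate Stat3, and Stat3 enters the nucleus and switches on genes that include its own inhibitor Socs3. In the injured brain this pathway is known mainly for its part in astrocyte reactivity and scar formation.

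Injured cortex had more transcript of Osmr, the chain that binds oncostatin M, at 2.14-fold the Sham level. Stat3 was called higher at a smaller 1.25-fold, but barely (edgeR adjusted p = 0.0495), and it lost that call in 12 of the alternative fits given below. Il6st had the same 1.25-fold and narrowly missed the threshold (edgeR adjusted p = 0.0669). No member was called lower. Of the 10 genes, 9 passed the expression filter of at least 0.5 FPKM (fragment counts scaled to transcript length and library depth) in at least 5 libraries, and Lif did not. In the edgeR quasi-likelihood test with Benjamini-Hochberg adjustment over 16316 genes, 2 of the 9 tested members were higher and 0 lower at an adjusted p under 0.05, where 4.04% of all tested genes were called, 3.57% higher and 0.472% lower. At an unadjusted p under 0.05 edgeR had 4 members higher and 0 lower, where 9.57% of all tested genes were higher and 5.42% lower. DESeq2 called 3 members higher and 0 lower, against 5.13% and 1.4% of all genes, and limma 3 higher and 0 lower, against 4.17% and 0.257%. The median log2 change of the 9 members was 0.43 and all 9 values were above 0, beside a median of -0.01 and 47.3% of values above 0 over all tested genes. The members were chosen with earlier results of these data known, so these shares describe the list only.

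Library totals ran from 47.6 to 71.3 megacounts as deposited, and low counts pile up on multiples of 4, as if about 4 counts stood for 1 fragment. The cortical neuron markers Tbr1, Cux2 and Neurod6 were present in every library, with a summed level of 42.7 to 51.6 FPKM in TBI and 50.8 to 69.7 FPKM in Sham. Choroid plexus markers, led by Ttr, summed to 863 FPKM in TBI replicate 1 and 28.6 FPKM in Sham replicate 3, against 1.6 to 5.27 FPKM in the other 8 libraries. TBI replicate 1 therefore stands apart, and the values without it are given below for Osmr, Stat3, Socs3 and the summed Cntf counts.

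**Figure D1:**
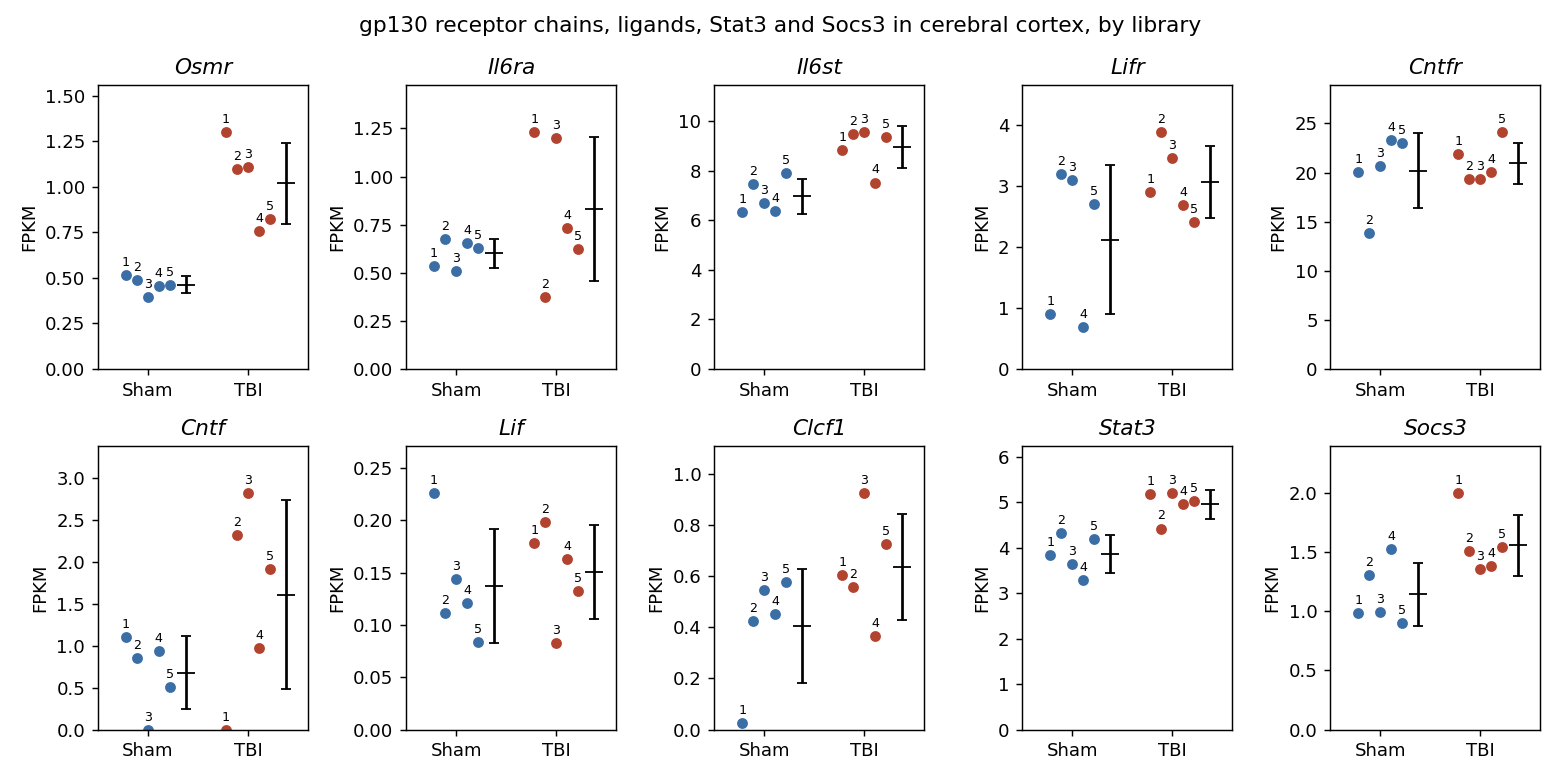
FPKM of each member in each library (y axis, linear from 0), with Sham libraries in blue, TBI libraries in red, replicate numbers above the points, and a black bar for the mean ± SD of 5 libraries. Osmr and Stat3 are the members whose TBI points all lie above the Sham points, while Lifr splits within Sham and Cntf sits at 0 in TBI replicate 1 and Sham replicate 3.

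Among the receptor chains, Osmr (ENSMUSG00000022146, mm10 chromosome 15, 6813577 to 6874969, minus strand) joins gp130 to form the oncostatin M receptor. Its level was 1.30, 1.10, 1.11, 0.760 and 0.826 FPKM in TBI replicates 1 to 5, and 0.518, 0.486, 0.395, 0.457 and 0.459 FPKM in Sham replicates 1 to 5. Every TBI library lay above every Sham library, a separation that 5.6% of tested genes showed in this direction and 0.729% in the other. TBI replicate 1 was the highest and TBI replicate 4 the lowest of the injured animals, and the Sham values spread little. The means were 1.02 ± 0.223 against 0.463 ± 0.0451 FPKM (SD, n = 5 each), a log2 change of 1.10 (approximate SE 0.15, approximate 95% interval 0.77 to 1.43, edgeR adjusted p = 0.00178). The gene met the filter in 5 TBI libraries and 1 Sham library, so it passed largely through the group in which it was high. Without the choroid-rich TBI replicate 1 the log2 change was 1.0 (edgeR adjusted p = 0.00356).

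Il6st (ENSMUSG00000021756, chromosome 13, 112464070 to 112510086, plus strand) encodes gp130 itself, the chain that all these receptors share. TBI replicates 1 to 5 had 8.86, 9.5, 9.56, 7.53 and 9.36 FPKM, and Sham replicates 1 to 5 had 6.35, 7.48, 6.71, 6.39 and 7.93 FPKM. In TBI, 4 libraries were above all Sham values and replicate 4 fell among them. The log2 change of 0.32 (approximate SE 0.09, interval 0.14 to 0.51) missed the threshold in edgeR at an adjusted p of 0.0669. It passed in DESeq2 (adjusted p = 0.0199) and in limma on log2(FPKM + 1) (adjusted p = 0.0465).

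Osmr was thus the scarcer chain of the oncostatin M receptor in every library. On the FPKM scale its level in the TBI libraries was 8.82% to 14.7% of that of Il6st. In the Sham libraries it was 5.79% to 8.16%. These ranges did not overlap, but neither did those of Osmr alone, so the percentages are no second result. How many other genes separate the groups by their ratio to Il6st was not counted. These percentages describe transcripts in whole tissue, where neither chain can be assigned to a cell type and where more cells of a type and more RNA per cell cannot be told apart.

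Lifr (ENSMUSG00000054263, chromosome 15, 7090614 to 7197489, plus strand) encodes the chain that pairs with gp130 for leukemia inhibitory factor and also serves ciliary neurotrophic factor. It lies 215.6 kb from Osmr. TBI replicates 1 to 5 had 2.90, 3.88, 3.46, 2.68 and 2.41 FPKM, and Sham replicates 1 to 5 had 0.900, 3.19, 3.09, 0.688 and 2.71 FPKM. Sham replicates 1 and 4 sat far below the other 3 Sham libraries, which shared the range of the TBI libraries. The same split was in the counts, 658 and 531 in those libraries against 2369 to 2404 in the other Sham libraries. The log2 change of 0.50 had a wide interval of -0.38 to 1.37 and did not pass (edgeR adjusted p = 0.646).

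Cntfr (ENSMUSG00000028444, chromosome 4, 41657498 to 41697040, minus strand), which encodes the membrane-anchored receptor for ciliary neurotrophic factor and has no signalling tail of its own, was the most abundant member per length in both groups. TBI replicates 1 to 5 had 21.9, 19.3, 19.3, 20.1 and 24.1 FPKM, and Sham replicates 1 to 5 had 20.1, 13.8, 20.7, 23.3 and 23.0 FPKM. The groups overlapped widely, with Sham replicate 2 the lowest. The fold was 1.01 with an approximate 95% interval of 0.822 to 1.24 (edgeR adjusted p = 0.979).

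Il6ra (ENSMUSG00000027947, chromosome 3, 89864059 to 89913196, minus strand), the binding chain for interleukin 6, was scattered in the injured animals. TBI replicates 1 to 5 had 1.23, 0.375, 1.2, 0.734 and 0.622 FPKM, whereas the Sham libraries stayed between 0.509 and 0.675 FPKM. TBI replicates 1, 3 and 4 were above all Sham values and TBI replicate 2 was below them all. Its log2 change of 0.43 (interval -0.20 to 1.06) did not pass (edgeR adjusted p = 0.554).

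The 3 ligand genes were at low levels and none passed in edgeR as deposited. Lif (ENSMUSG00000034394, chromosome 11, 4257557 to 4272514), the gene of leukemia inhibitory factor, stayed between 0.0824 and 0.198 FPKM in TBI and between 0.0841 and 0.226 FPKM in Sham, on 224 and 215 counts in all. It never reached the filter, and in the edgeR fit without a filter its log2 change was 0.10 (interval -0.61 to 0.81, adjusted p = 0.948). That fit called 1.87% of 32852 genes, 1.74% higher. Clcf1 (ENSMUSG00000040663, chromosome 19, 4214238 to 4223490), whose product is a ligand of the receptor built on Cntfr, had 0.603, 0.557, 0.925, 0.365 and 0.724 FPKM in TBI replicates 1 to 5. Its Sham values were 0.0244, 0.423, 0.545, 0.451 and 0.578 FPKM, and Sham replicate 1 held just 7 counts. The groups overlapped and the log2 change of 0.62 (interval -0.56 to 1.79) did not pass (edgeR adjusted p = 0.682).

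Cntf (ENSMUSG00000079415, chromosome 19, 12763660 to 12765632, minus strand) encodes ciliary neurotrophic factor, an astrocyte and Schwann cell product that supports neurons. TBI replicates 1 to 5 had 0, 2.32, 2.82, 0.972 and 1.92 FPKM, and Sham replicates 1 to 5 had 1.10, 0.853, 0, 0.937 and 0.512 FPKM. TBI replicate 1 and Sham replicate 3 were at 0 while 3 TBI libraries exceeded every Sham value. The log2 change of 1.22 had an interval of -0.79 to 3.23 and did not pass (edgeR adjusted p = 0.615).

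The whole Cntf entry lies inside a Zfp91 entry on the same strand (ENSMUSG00000118491, chromosome 19, 12763660 to 12796126), separate from the main Zfp91 entry. That spanning entry had 99 counts in TBI replicate 1, 53 counts in Sham replicate 3 and 0 in the other 8 libraries. The libraries with 0 on Cntf were therefore exactly those with counts on the spanning entry. Summed over both entries and divided by the library total in megacounts, the counts were 2.08, 2.85, 3.45, 1.18 and 2.35 in TBI replicates 1 to 5, and 1.35, 1.04, 0.830, 1.15 and 0.631 in Sham replicates 1 to 5. In 4 of 5 TBI libraries the sum exceeded every Sham value, and TBI replicate 4 lay among the Sham libraries. The summed counts gave a log2 change of 1.22 (approximate SE 0.29) at an edgeR adjusted p of 0.0415, in a fit chosen after the pattern was seen. With 1 library left out at a time that adjusted p ran from 0.00745 without TBI replicate 4 to 0.105 without Sham replicate 3, and it stayed under 0.05 in 2 of those 10 fits. Without TBI replicate 1 it was 0.0728. How many of these reads belong to Cntf and how many to Zfp91 cannot be told from gene counts.

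**Figure D2:**
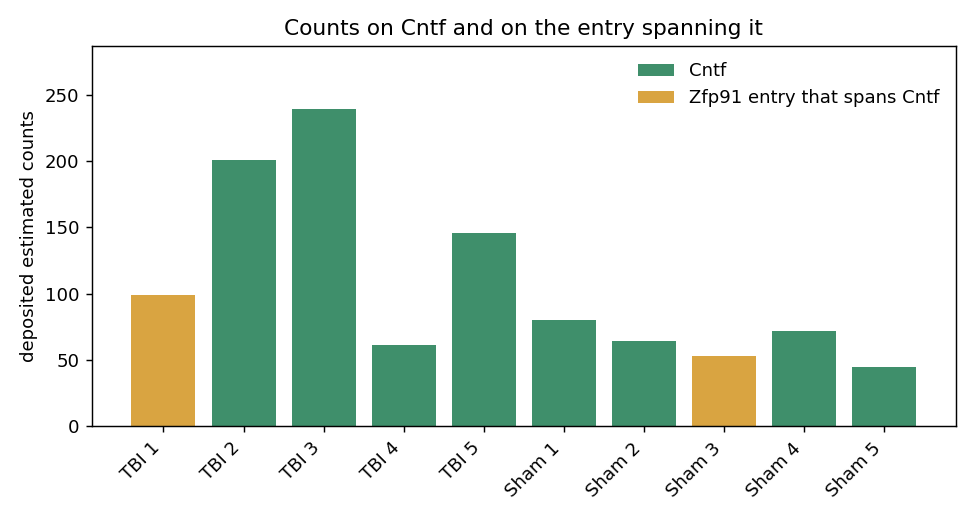
Deposited estimated counts (y axis) on Cntf, in green, and on the Zfp91 entry that spans it, in yellow, stacked for each of the 10 libraries. Yellow bars stand in TBI replicate 1 (99 counts) and Sham replicate 3 (53 counts), where the green bar is at 0.

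Stat3 (ENSMUSG00000004040, chromosome 11, 100885098 to 100939540, minus strand), the transcription factor activated downstream of gp130, had 5.17, 4.42, 5.20, 4.95 and 5.03 FPKM in TBI replicates 1 to 5. Sham replicates 1 to 5 had 3.83, 4.32, 3.65, 3.28 and 4.18 FPKM. The groups did not overlap, although TBI replicate 2 and Sham replicate 2 came within a narrow margin of each other. The means were 4.95 ± 0.316 against 3.85 ± 0.418 FPKM (SD, n = 5 each) and the log2 change was 0.32 (approximate SE 0.08, interval 0.15 to 0.50). The edgeR adjusted p of 0.0495 was just under the threshold, and it was lost without TBI replicate 1 (0.123), TBI replicate 3 (0.124), TBI replicate 4 (0.0653) or TBI replicate 5 (0.0941). It was likewise lost without Sham replicate 1 (0.105), 3 (0.113), 4 (0.0636) or 5 (0.0603), while DESeq2 (adjusted p = 0.0101) and limma on log2(FPKM + 1) (adjusted p = 0.0381) called it. The end of Stat3 overlaps Stat5a on the opposite strand over 72 bases. Stat5a carried 872 counts over the TBI libraries and 594 over the Sham libraries against 16098 and 13354 on Stat3, and whether the counting used strand is not stated.

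Socs3 (ENSMUSG00000053113, chromosome 11, 117966079 to 117970047, minus strand) is the feedback gene, whose protein binds gp130 and Jak kinases and ends the signal. Its start region is shown because it was the single one of 9 members with a sequence window to hold the palindromic STAT-type motif TTCNNNGAA within 250 bases before a RefSeq start. The stretch is chr11:117969452-117969616 of GRCm38.p6 on the minus strand, from RefSeq, 165 bases with the motif in capitals. It lies before the RefSeq start at 117969366 but inside the gene's span as given above, since the GENCODE annotation also has a longer transcript that starts farther out. The stretch is in no exon of that annotation and does not reach the RefSeq start. The part of the 250-base window nearest the start, which runs into an annotated exon, is not printed, and any match there is not marked.
Socs3, before the RefSeq start: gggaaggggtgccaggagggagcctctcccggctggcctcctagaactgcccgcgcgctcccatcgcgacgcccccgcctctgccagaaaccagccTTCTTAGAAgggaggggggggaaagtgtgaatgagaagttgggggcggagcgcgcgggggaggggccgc
The motif covers bases 154 to 146 before the RefSeq start. The searched pattern, though not the matched letters, is the same on both strands. It was held by 7.02% of 32851 windows of that length, and by 8.13% of 27025 genes in at least 1 window. A count of 1 in 9 members is near that share of genes, so the motif does not set this list apart. The other 8 members with windows, Osmr and Stat3 among them, did not hold these letters there, which says nothing of binding elsewhere.

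The level of Socs3 was 2.00, 1.51, 1.36, 1.38 and 1.54 FPKM in TBI replicates 1 to 5, and 0.986, 1.31, 0.993, 1.53 and 0.904 FPKM in Sham replicates 1 to 5. All 5 TBI libraries exceeded the Sham median, but Sham replicate 4 lay at the level of the TBI libraries, so the groups overlapped. The log2 change of 0.40 (approximate SE 0.17, interval 0.02 to 0.78) had an unadjusted p of 0.039 and did not pass (edgeR adjusted p = 0.296). TBI replicate 1 was the highest library, and without it the log2 change was 0.30 (adjusted p = 0.506).

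The order of the members by mean FPKM was alike in both groups at the top. In Sham it ran Cntfr at 20.2 ± 3.83, Il6st at 6.97 ± 0.704, Stat3 at 3.85 ± 0.418 and Lifr at 2.11 ± 1.22 FPKM, and the ranges of neighbours among these 4 did not overlap. From Lifr downwards each gene overlapped with the next: Socs3 at 1.14 ± 0.263, Cntf at 0.680 ± 0.437, Il6ra at 0.601 ± 0.0740, Osmr at 0.463 ± 0.0451, Clcf1 at 0.404 ± 0.222 and Lif at 0.137 ± 0.0539 FPKM. In TBI the first 4 places were the same. Osmr stood in place 8 in Sham and in place 7 in TBI, where the gene next above it was Socs3, whose range it did not overlap in either group, and the gene next below was Il6ra, whose range it overlapped.

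Other cytokines and receptors of the family showed no called change. Of 11 listed genes, 3 passed the filter. In edgeR 0 of the 3 were higher and 0 lower, beside 3.57% and 0.472% of all tested genes. At an unadjusted p under 0.05 in edgeR there were also 0, beside 9.57% higher and 5.42% lower. DESeq2 called 0, beside 5.13% and 1.4%, and limma 0, beside 4.17% and 0.257%. With 3 genes tested, counts of 0 are near these shares and do not show that the family was unchanged. Ebi3, a subunit of interleukin 27, was at 1.19 ± 0.622 against 0.725 ± 0.259 FPKM (edgeR adjusted p = 0.478) and Ctf1, the cardiotrophin gene, at 0.804 ± 0.242 against 0.554 ± 0.199 FPKM (adjusted p = 0.503). Osm, the ligand of Osmr, lay below the filter, with 0.0865, 0.0413, 0.0274, 0.0313 and 0.256 FPKM in TBI replicates 1 to 5 and 0 to 0.0932 FPKM in Sham, on 72 and 23 counts (adjusted p = 0.550 in the fit without a filter). Il6 had 20 counts in all over 3 TBI libraries and 0 counts in every Sham library (adjusted p = 0.323 in the same fit).

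Downstream of the receptors, the kinase gene Tyk2, whose product binds gp130-type receptors, was at 2.92 ± 0.25 against 2.54 ± 0.0911 FPKM in TBI and Sham, and 4 of 5 TBI libraries lay above every Sham library. Its fold of 1.12 (interval 1.0 to 1.25) did not pass (edgeR adjusted p = 0.324). The inhibitor gene Socs2, a relative of Socs3, was at 1.34 ± 0.169 against 1.49 ± 0.216 FPKM with overlapping groups, and its fold of 0.878 (interval 0.736 to 1.05) did not pass either (edgeR adjusted p = 0.514).

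Among 18 genes listed as known Stat3 targets, 14 were tested. In edgeR 5 were higher and 0 lower, beside 3.57% and 0.472% of all tested genes. The median log2 change of the 14 was 0.27, beside -0.01 over all tested genes. At an unadjusted p under 0.05, 8 were higher and 1 lower, beside the 9.57% and 5.42% of all genes. DESeq2 called 6 higher and 1 lower, beside 5.13% and 1.4%, and limma 6 higher and 0 lower, beside 4.17% and 0.257%. This list too was chosen with earlier results of these data known, so the shares and the median describe the list only. Whether Stat3 acted on these genes was not tested. Without TBI replicate 1, edgeR also called 5 of the 14 higher, and 482 of all 16316 tested genes in either direction. The risers were the protease inhibitor Serpina3n (8.34-fold), the glial filaments Gfap (6.61-fold) and Vim (3.41-fold), the metalloproteinase inhibitor Timp1 (3.88-fold) and the interleukin 4 receptor chain Il4ra (1.74-fold, adjusted p = 0.00741). Il4ra had 2.03, 1.54, 1.89, 1.30 and 1.36 FPKM in TBI replicates 1 to 5 and 0.848 to 1.05 FPKM in Sham, with no overlap. Of the 4 listed genes below the filter, Lcn2 and Icam1, named after their values were seen, were called higher in the fit without one. That fit called 1.74% of 32852 genes higher. Lcn2, the lipocalin of acute inflammation, was at 0.814 ± 0.419 against 0.0925 ± 0.0626 FPKM (edgeR adjusted p = 0.00828), and the adhesion gene Icam1 at 1.03 ± 0.412 against 0.335 ± 0.0911 FPKM (edgeR adjusted p = 0.0199).

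Other target genes did not pass. The transcription factor gene Cebpd was above every Sham value in all TBI libraries at 1.1 ± 0.268 against 0.487 ± 0.213 FPKM (edgeR adjusted p = 0.0549). The kinase gene Pim1 pointed downwards, at 0.485 ± 0.0774 against 0.735 ± 0.194 FPKM (edgeR adjusted p = 0.135).

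**Figure D3:**
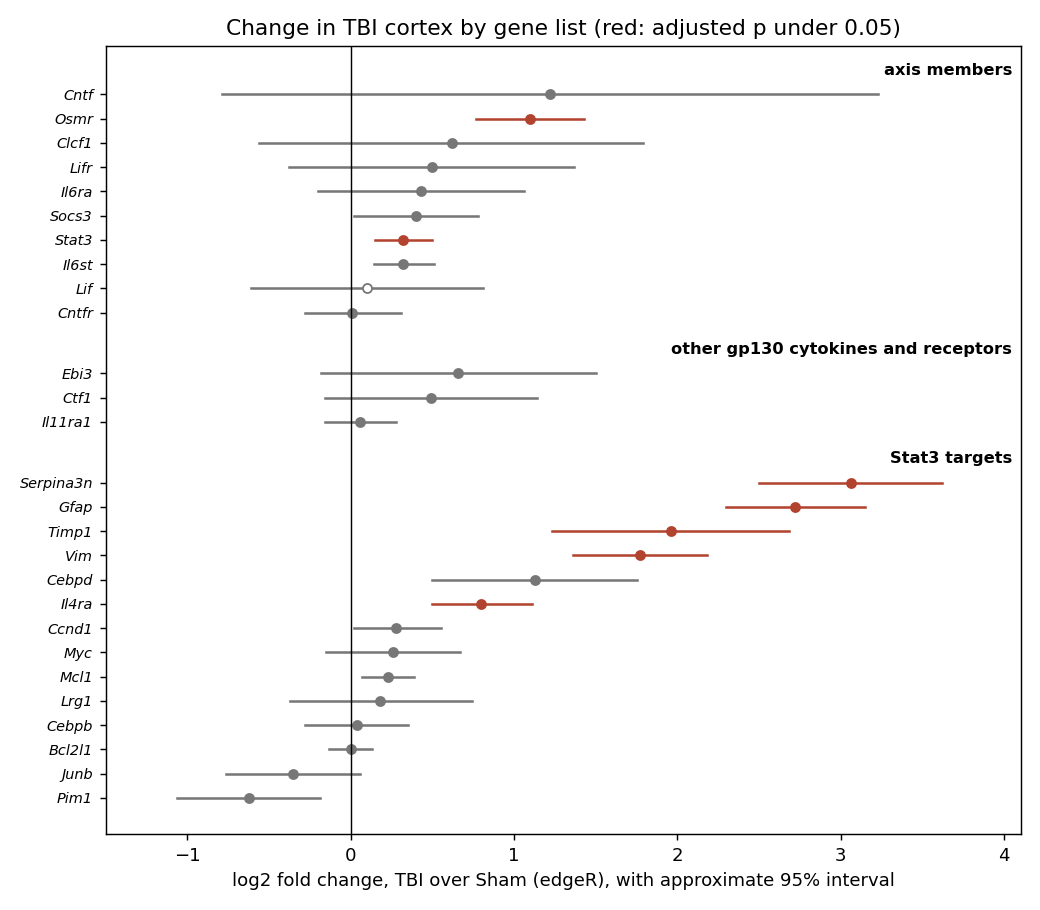
Log2 fold change of TBI over Sham (x axis) for the members, other family genes and Stat3 targets, with approximate 95% intervals as lines; red marks an edgeR adjusted p under 0.05 and the open point is Lif from the fit without a filter. Osmr at 1.10 is the called member farthest to the right, while Serpina3n at 3.06 and Gfap at 2.72 lead the target list.

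Markers of cell types were taken from the same fits, where edgeR called 3.57% of all tested genes higher and 0.472% lower. The shares were 5.13% and 1.4% in DESeq2, and 4.17% and 0.257% in limma. The marker lists were also chosen with earlier results of these data known, so their counts describe the lists only. Of 6 microglia markers 5 rose, and their summed level was 139 to 198 FPKM in TBI against 75.2 to 83.1 FPKM in Sham, with TBI replicate 1 highest and TBI replicate 4 lowest, as for Osmr. Of 6 astrocyte markers Aqp4 rose in edgeR and 3 in DESeq2 and in limma, and the sum was 413 to 568 against 344 to 425 FPKM. Of 5 endothelial, 5 neuronal and 5 oligodendrocyte markers 0 were called in edgeR, DESeq2 or limma. At an unadjusted p under 0.05 in edgeR 1 neuronal marker was lower, beside 5.42% of all tested genes. With so few markers, counts of 0 are near the shares of all genes and do not show that these cell types were unchanged. Of 5 fibroblast and mural markers Col1a1 rose (sum 32.5 to 44.1 against 30.3 to 34.9 FPKM). Blood myeloid markers summed to 0.548 to 1.94 FPKM in TBI and 0.4 to 1.4 FPKM in Sham, with S100a8, S100a9 and Plac8 at 0 in some libraries. The part of these cell types in the levels of Osmr and Stat3 was not tested.

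The profile of Osmr over the 10 libraries was nearest to those of Fyb, Hcls1 and Ncf4, by the Euclidean distance between standardised log2(FPKM + 1) values. Their distances were 0.41, 0.45 and 0.47, where the median over tested genes, clone-like symbols left out, was 4.03. The 3 were picked as the nearest from these same values. In 5.6% of tested genes every TBI library lay above every Sham library, so closeness to Osmr is no result separate from the group difference. Fyb, an adaptor gene of blood cells, went from 0.424 to 0.553 FPKM in Sham to 1.03 to 1.83 FPKM in TBI, and Hcls1, a cortactin-like gene of blood cells, from 1.36 to 1.94 FPKM to 2.91 to 4.89 FPKM. Socs3, whose groups overlapped, had no neighbour as close: Apoa2, Insm1 and Tmem106c lay at 1.07, 1.14 and 1.17.

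**Figure D4:**
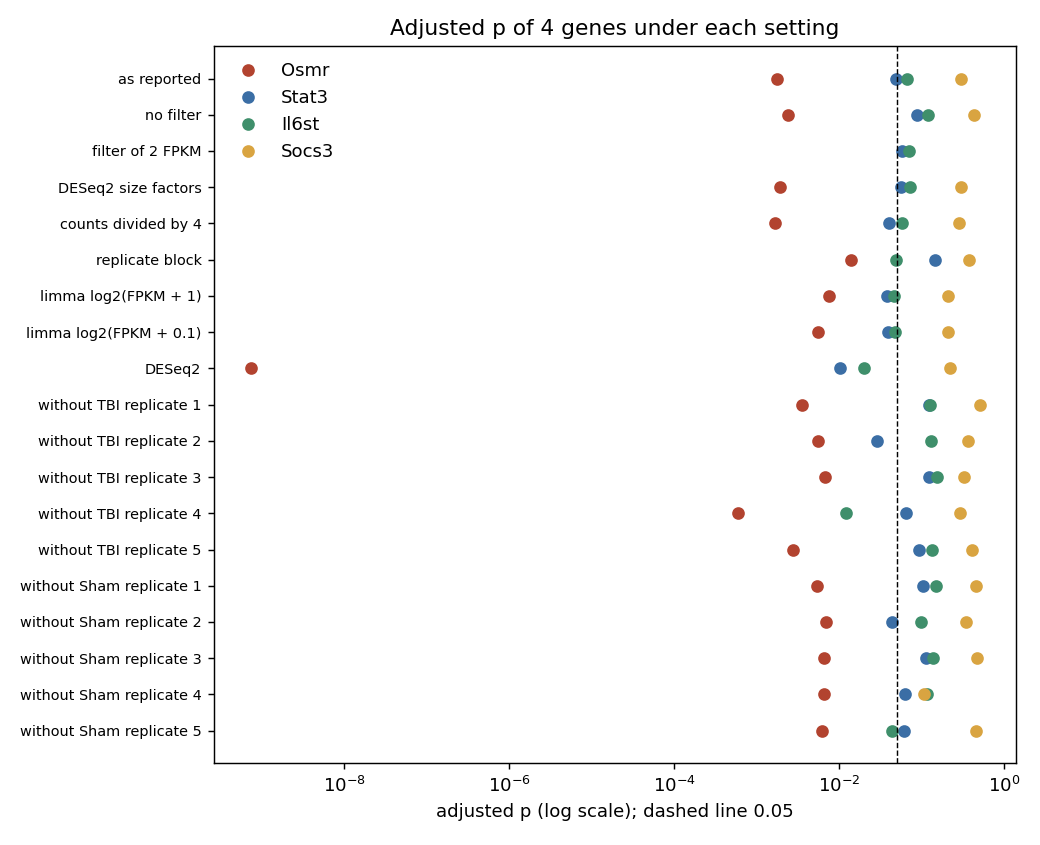
Adjusted p (x axis, log scale) of Osmr, Stat3, Il6st and Socs3 under the reported fit and 18 other settings or left-out libraries (y axis); the dashed line is 0.05. Osmr is left of the line in every fit that tested it, Stat3 and Il6st lie on both sides of it, and Socs3 lies to its right.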

How the data were processed

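RNA from cerebral cortex was sequenced as paired ends of 150 bases, per the labels. The submitters' processing notes list mm10, StringTie, HISAT2 and cutadapt 1.9; annotation release, counting tool and strand setting are not given in the sources used here. Each library has an estimated count and an FPKM column, per the file headers. As deposited, estimated counts were whole numbers, 42.6% of those from 1 to 12 being 4, 8 or 12 where an even spread gives 25%. The deposited FPKM are scaled by the authors to length and depth, and the fill value 0.0001, which goes with a count of 0, was read as 0. No sample column was left unused.

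Groups and replicate numbers came from sample titles. Genes with at least 0.5 FPKM in at least 5 libraries (16316) were tested on the deposited counts by the two-sided quasi-likelihood test of edgeR 4.0.16 (R 4.3.3) after TMM scaling, group being the single term. P-values were adjusted by Benjamini-Hochberg and called under 0.05. Lif and other genes below the filter were taken from a fit of 32852 genes with any count. Approximate SEs were obtained by dividing the size of each log2 change by the root of its F. Intervals used the t distribution at the total degrees of freedom of the edgeR fit, residual plus prior. DESeq2 1.42.0, limma 3.58.1, scaling, filters, pseudocounts, a replicate block and leaving out libraries were alternatives, and the edgeR script was tested on simulated data. Members, lists and rules were chosen with earlier results of these data known. Beside the members, every called gene of each list and its nearest uncalled pair were named, with Osm and Il6, and others were named after their values were seen. The series design gives 5 mice a group, so libraries were taken as separate animals. Within groups no pair of libraries agreed within sampling noise. Of 11 other family genes 8 were below the filter. Some listed items are not reported here, and no count is given for the Jak-Stat list.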

Additional observations from a re-analysis of the deposited data

Results flagged for a closer look

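In 66 sets of 5 libraries, 9 held a library far from the other 4 by Dixon's criterion at the 95% level, which flags about 1 set in 20 by chance. Among the members, Clcf1 was at 0.0244 FPKM in Sham replicate 1, where the next library had 0.423, and Socs3 was at 2.00 FPKM in TBI replicate 1, where the next had 1.54. Osm was at 0.256 FPKM in TBI replicate 5, above 0.0865 in the next library. Cebpd was at 1.57 FPKM in TBI replicate 1, above 1.04, and Gfap at 27.6 FPKM in Sham replicate 3, below 40.2. Summed marker levels stood apart for choroid plexus in TBI replicate 1 (863 FPKM, next 3.48) and in Sham replicate 3 (28.6 FPKM, next 5.27). They also did for astrocytes in Sham replicate 3 (425 FPKM, next 366) and for neurons in TBI replicate 2 (815 FPKM, next 919).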

How the results depend on the processing

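Osmr kept its direction and its call in all 17 alternatives that tested it, with adjusted p up to 0.0139 (replicate block). The number of members called higher, 2 in the reported fit, was 1 without a filter, 0 with a filter of 2 FPKM (which leaves out Osmr), 1 with DESeq2 size factors, and 1 to 2 when single libraries were dropped; the number lower was 0 throughout. Stat3 lost its call in 12 of 18 alternatives, at adjusted p = 0.0887 without a filter, 0.0582 with the filter of 2 FPKM and 0.0569 with DESeq2 size factors, and Il6st gained one in 6 of 18; the cause was not tested. Stat3 targets called higher numbered 5, and 3 with the filter of 2 FPKM, where 7 were tested. Near 0, the log2 change of Cntfr ran from -0.10 to 0.08 and that of Lif from -0.03 to 0.34 when single libraries were dropped; Cntfr turned below 0 without TBI replicate 1, TBI replicate 5 (-0.04) or Sham replicate 2, and Lif without TBI replicate 2 (-0.02) or Sham replicate 5. With the replicate number as a block 2 members passed, Osmr and Il6st (adjusted p = 0.0488), Stat3 did not (0.145), the Cntf sum did not (0.157), and 402 genes were called against 659. The filter of 2 FPKM called 385 genes and DESeq2 1066. Deviations of same-numbered TBI and Sham libraries correlated at -0.14 to 0.17, and 1 of 5 TBI libraries correlated best with its own number. These values show no shared deviation by number, but cannot exclude a pairing that left no mark on expression. The low ligand genes rest on few counts. The p-values set the group difference against the spread between these mice, which the fits estimate with information shared across genes.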
